A study of Homo sapiens with 6 samples.

Results

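The ELR CXC chemokines are secreted proteins that draw neutrophils, and the 6 genes examined here are CXCL1, CXCL2, CXCL3, CXCL5, CXCL6 and CXCL8. Their members were taken as every probe set whose platform annotation gave exactly 1 gene symbol and whose symbol was on that list, which gave 14 of 49293 non-control probe sets, with 2 to 3 probe sets per gene. A further 2 probe sets name a member together with another gene and were left out. HMEC-1, an endothelial line of human dermal microvessels that was made immortal with a viral oncoprotein, was kept in serum-free medium and received the treatment. In 3 samples they had been given EPC-Exos at 1e+11 particles per mL for 24 hours. The other 3 samples had been given the same volume of PBS for 24 hours. The labels do not spell out EPC-Exos; from knowledge of the study they are taken to be exosomes of endothelial progenitor cells, that is, vesicles that cells shed. Total RNA was measured on Affymetrix 3' expression arrays, 1 array per sample.

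ELR stands for the amino acids glutamate, leucine and arginine, which these chemokines carry just ahead of their first cysteine and which they need to bind the neutrophil receptors CXCR1 and CXCR2. Endothelial cells make them when interleukin 1, tumour necrosis factor or bacterial products switch on NF-kB, hold them on heparan sulphate at the vessel surface, and so guide rolling neutrophils to stop and cross the wall. The same chemokines act back on endothelium through CXCR2 and are known as promoters of vessel growth. Their messenger RNAs are short-lived because of AU-rich elements, which decay factors such as tristetraprolin recognise. In the RefSeq gene order of chromosome 4 the members lie in a single cluster, CXCL8 first, then CXCL6, CXCL1, CXCL5, CXCL3 and CXCL2, with the platelet chemokine genes PF4V1, PF4 and PPBP among them.

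The stretch just ahead of each gene is shown because 5 of the 6 members rose together, while CXCL6 was not told from background. Each run gives the 140 bases before the annotated start in RefSeq, build GRCh38.p14, on the gene's own strand from 5′ to 3′. Capitals mark the motifs searched for, GGAANTTCC for NF-kB, TGANTCA for AP-1 and TATAAA for the TATA box.
CXCL8 (chr4:73740429-73740568, plus strand): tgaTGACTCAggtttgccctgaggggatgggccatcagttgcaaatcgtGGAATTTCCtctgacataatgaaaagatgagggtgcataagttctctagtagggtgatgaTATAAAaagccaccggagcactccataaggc
CXCL1 (chr4:73869253-73869392, plus strand): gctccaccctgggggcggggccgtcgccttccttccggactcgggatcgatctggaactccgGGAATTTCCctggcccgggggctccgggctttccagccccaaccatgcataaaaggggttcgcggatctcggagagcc
CXCL2 (chr4:74099196-74099335, minus strand): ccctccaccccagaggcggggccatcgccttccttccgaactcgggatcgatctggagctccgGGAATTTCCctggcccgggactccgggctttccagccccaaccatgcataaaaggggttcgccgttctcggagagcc
CXCL3 (chr4:74038690-74038829, minus strand): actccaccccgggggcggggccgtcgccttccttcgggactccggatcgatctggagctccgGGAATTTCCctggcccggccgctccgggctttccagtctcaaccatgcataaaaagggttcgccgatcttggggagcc
CXCL5 (chr4:73998678-73998817, minus strand): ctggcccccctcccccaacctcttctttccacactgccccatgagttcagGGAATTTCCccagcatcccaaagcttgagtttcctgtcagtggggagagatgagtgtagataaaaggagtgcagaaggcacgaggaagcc
CXCL6 (chr4:73836538-73836677, plus strand): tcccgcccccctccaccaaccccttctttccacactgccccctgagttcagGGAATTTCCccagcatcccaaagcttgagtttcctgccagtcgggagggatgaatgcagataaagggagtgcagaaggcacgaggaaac

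All 6 promoters held GGAATTTCC. Its first base lay 91 bases before the start in CXCL8, 78 in CXCL1 and CXCL3, 77 in CXCL2, 90 in CXCL5 and 89 in CXCL6. The searched pattern GGAANTTCC reads the same on both strands, and 0.965% of 35116 RefSeq promoters of the same length of 300 bases held it. The share that held GGAATTTCC itself was not counted. The longer classical NF-kB consensus, which overlaps this motif, was found in every member but CXCL8, on both strands, and in 11.3% of all promoters. CXCL8 alone of the 6 held TGANTCA (7.71% of all promoters) and TATAAA (11.5% of all promoters) in that window. Both were searched for as written. Near matches to TATAAA, such as cataaaa in CXCL1, CXCL2 and CXCL3 and gataaa in CXCL5 and CXCL6, were therefore not counted. The aligned stretches of CXCL5 and CXCL6 were identical in 90.1% of positions, those of CXCL1 with CXCL2 and CXCL3 in 91.5% and 90.7%, and that of CXCL8 with the others in 44.3% to 51.5%. A match describes letters only, and no binding was measured.

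After EPC-Exos, 5 of the 6 chemokine genes rose, each on every one of its probe sets. By their brightest probe sets the measured rises were 12.7-fold for CXCL3, 6.14-fold for CXCL2, 5.89-fold for CXCL8, 5.61-fold for CXCL1 and 4.75-fold for CXCL5. All of these but that of CXCL3 came from _s_at or _x_at probe sets, kinds that share probes between transcripts. The other probe sets gave 10.6-fold for CXCL3, 4.07-fold for CXCL2 and 8.22-fold and 7.56-fold for CXCL8. For CXCL1 they gave 3.37-fold, and for CXCL5 3.51-fold and 2.49-fold. The folds of CXCL3 and CXCL5 are uncertain, since their PBS signals were not above background, and the order of the genes changed with the probe set and with the treatment of background. CXCL6 did not pass the test and lay below background on both of its probe sets. Of the 14 probe sets, 12 were called higher at a Benjamini-Hochberg adjusted p under 0.05 in limma, fitted over all 49293 probe sets, and 0 were called lower. Over all probe sets 13.6% were called higher and 14.8% lower, so the size of the change says more than the call. All 12 rose at least 1.5-fold, the threshold of the series text, which 2.76% of all probe sets did; with 64 added to the linear signal 10 of them still did. All 12 also rose at least 2-fold and 9 at least 4-fold, against 0.708% and 0.108% of all probe sets. The median log2 change was 2.37 over the 14 probe sets and 0.018 over all probe sets. In bulk RNA, more cells expressing a gene and more of its RNA per cell cannot be told apart. The labels name no batch, so treatment and any batch that follows the groups cannot be told apart. Nothing says that the replicates came from separate cultures, so the spread behind each p-value may be technical.

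**Figure D1:**
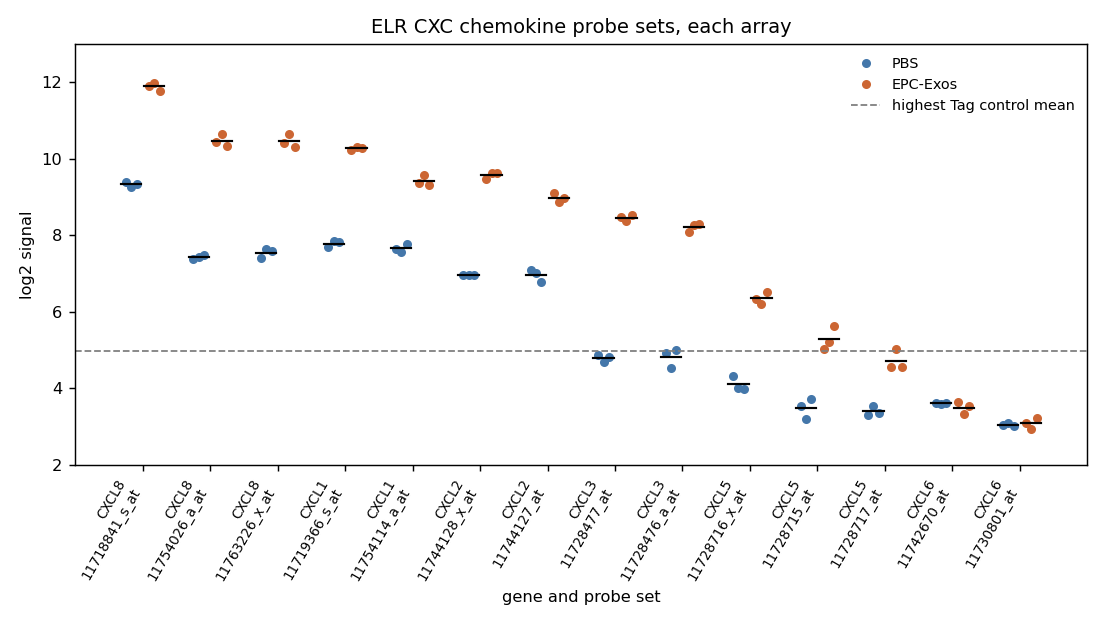
Log2 signal (vertical axis) of each of the 14 member probe sets (horizontal axis, gene and probe set) on every array, 3 with PBS in blue and 3 with EPC-Exos in orange. Short bars are group means and the dashed line is the highest mean of the Tag controls, 4.97; the groups stand apart in all probe sets but those of CXCL6.

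CXCL8, or interleukin 8, is the member that engages both CXCR1 and CXCR2 strongly, and endothelial cells can store it for rapid release. On the brightest of its 3 probe sets (11718841_s_at) the log2 signals were 9.39, 9.27 and 9.34 with PBS and 11.90, 11.99 and 11.78 with EPC-Exos. The groups were far apart, with a gap of 2.39 between the highest PBS array and the lowest EPC-Exos array. The change was 2.56 ± 0.057 (SE, n = 3 per group), or 5.89-fold, with an adjusted p of 6.93e-16 in limma. The other probe sets gave larger changes. On 11754026_a_at the arrays read 7.38, 7.44 and 7.48 with PBS and 10.44, 10.65 and 10.32 with EPC-Exos, a change of 3.04 ± 0.078 or 8.22-fold. On 11763226_x_at they read 7.40, 7.63 and 7.59 against 10.42, 10.64 and 10.30, a change of 2.92 ± 0.084 or 7.56-fold. EPC-Exos replicate 2 read highest and replicate 3 lowest of the treated arrays on all 3 probe sets, by at most 0.34, so the order of arrays was shared while the size of the rise differed from the first probe set to the others.

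CXCL1, CXCL2 and CXCL3 are the GRO chemokines, close paralogues that signal through CXCR2. Since their transcripts are alike, a probe set of one can bind RNA of another, above all the kinds marked _s_at and _x_at, which share probes by design. For CXCL1, probe set 11719366_s_at read 7.68, 7.85 and 7.81 with PBS and 10.23, 10.30 and 10.28 with EPC-Exos. That is a change of 2.49 ± 0.066, or 5.61-fold (limma adjusted p = 6.08e-15), with treated arrays that differed by only 0.06. Probe set 11754114_a_at of the same gene, which is not of the shared kind, read 7.65, 7.56 and 7.78 against 9.36, 9.57 and 9.32. Its change was smaller, 1.75 ± 0.081 or 3.37-fold, and its 95% interval (1.58 to 1.92) did not reach that of the first (2.35 to 2.63).

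CXCL2 showed the same kind of split between probe sets. Probe set 11744128_x_at read 6.95, 6.96 and 6.95 with PBS and 9.48, 9.62 and 9.62 with EPC-Exos, a change of 2.62 ± 0.072 or 6.14-fold (limma adjusted p = 1.03e-14). Probe set 11744127_at, which is not of the shared kind, read 7.10, 7.00 and 6.78 against 9.11, 8.88 and 8.96, a change of 2.02 ± 0.092 or 4.07-fold. The groups stood apart on both, by 2.52 and 1.78. Judged by the suffix alone, the value from the unshared probe set is the one less open to RNA of the paralogues. Probe sequences were not checked.

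Neither probe set of CXCL3 is of the shared kind, and both gave larger changes than any other member on the deposited scale. On 11728477_at the arrays read 4.87, 4.67 and 4.82 with PBS and 8.48, 8.36 and 8.54 with EPC-Exos, a change of 3.67 ± 0.10 (limma adjusted p = 8.93e-15). On 11728476_a_at they read 4.92, 4.52 and 5.00 against 8.09, 8.26 and 8.30, a change of 3.40 ± 0.12 or 10.6-fold. Among all 49293 probe sets these ranked 8 and 11 by size of rise. The PBS means, 4.79 and 4.81, lay at or just under the highest mean of the Tag controls, 4.97. These are 17 probe sets that match no human transcript and serve here as a guide to background, since the table carries no detection calls. The EPC-Exos means stood 3.49 and 3.25 above that level. A signal at background can compress the fold, so the 12.7-fold rise is uncertain in size. With 64 added to the linear signal before taking logs, the change of CXCL3 fell to 2.18 and 1.97, below those of CXCL8 on all 3 probe sets (2.45 to 2.65), so the order of these members depends on how background is treated.

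**Figure D2:**
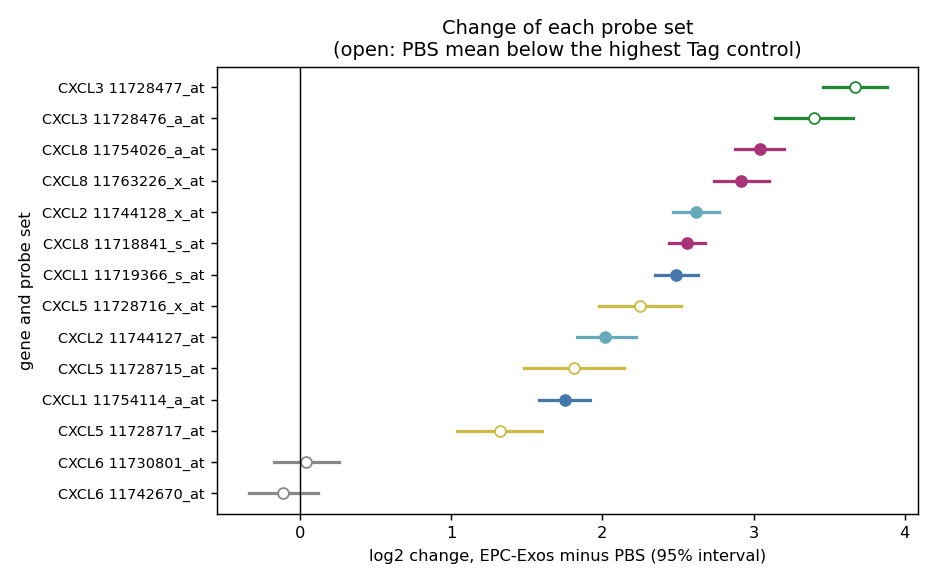
Change of each member probe set (horizontal axis, log2 signal with EPC-Exos minus PBS; points with 95% intervals from limma, coloured by gene, probe sets on the vertical axis). Open points have a PBS mean below the highest Tag control; the called changes run from 1.32 for a CXCL5 probe set to 3.67 for CXCL3, and both CXCL6 intervals include 0.

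CXCL5 and CXCL6 form the other pair of paralogues. CXCL5, also named ENA-78, attracts neutrophils through CXCR2. It was near background with PBS on all 3 of its probe sets. On 11728716_x_at the arrays read 4.32, 3.99 and 3.98 with PBS and 6.33, 6.20 and 6.52 with EPC-Exos, a change of 2.25 ± 0.13 or 4.75-fold (limma adjusted p = 2.76e-10). On 11728715_at they read 3.52, 3.19 and 3.71 against 5.02, 5.20 and 5.63, a change of 1.81 ± 0.16. On 11728717_at they read 3.29, 3.52 and 3.36 against 4.54, 5.02 and 4.56, a change of 1.32 ± 0.13. The groups did not overlap on any of these, but on the last the EPC-Exos mean, 4.71, was still below the Tag level of 4.97. With 64 added to the linear signal the changes were 0.84, 0.46 and 0.28, still called. An added constant keeps the order of the arrays, so these calls add little support for the rise. The smaller changes leave its fold not well fixed.

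CXCL6, also named GCP-2, binds both neutrophil receptors. On 11742670_at the arrays read 3.60, 3.59 and 3.62 with PBS and 3.64, 3.33 and 3.52 with EPC-Exos, and on 11730801_at 3.03, 3.09 and 3.02 against 3.10, 2.94 and 3.22. The groups overlapped on both probe sets. The changes were -0.11 ± 0.11 (95% interval -0.34 to 0.12) and 0.04 ± 0.10 (-0.17 to 0.26), with limma adjusted p of 0.535 and 0.83. The group means, 3.04 to 3.60, all lay below the highest Tag control, so a CXCL6 transcript was not told from background in either group and a change of it could not be judged. The promoter printed above for CXCL6 carries the same GGAATTTCC as that of CXCL5.

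In all, 7 member probe sets had a PBS mean above the highest Tag control, those of CXCL8, CXCL1 and CXCL2, and 11 had an EPC-Exos mean above it. The 4 that crossed it were the CXCL3 pair and the first 2 probe sets of CXCL5. The EPC-Exos arrays were above all PBS arrays in 12 of the 14 members, while 20.0% of all probe sets showed that separation. A total of 11 members stood among the 100 probe sets with the largest rise. The remaining 3 were 11728717_at of CXCL5, at rank 146, and the CXCL6 pair.

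**Figure D3:**
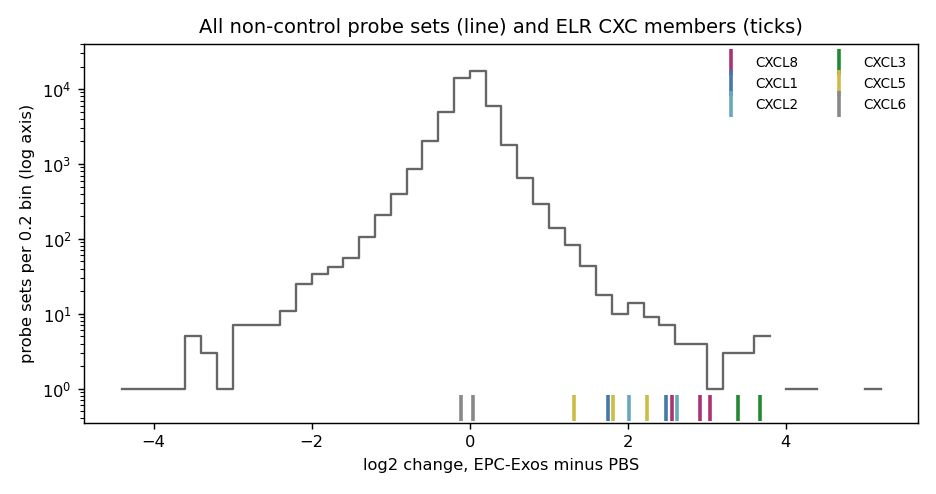
Distribution of the log2 change (horizontal axis, EPC-Exos minus PBS) over the 49293 non-control probe sets, as a line of the number of probe sets per bin on a log axis, with the 14 members as coloured ticks. The ticks of 5 genes lie at 1.32 and above, where few probe sets stand, and those of CXCL6 lie near 0.

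The genes with the profile nearest to the members' median were sought among 12756 other genes whose mean signal lay above the highest Tag control. Likeness was the root mean square difference over the 6 arrays of log2 signal less the gene's own PBS mean, which with 2 groups mostly reflects the size of the change. Nearest were IL1B, the cytokine interleukin 1 beta (difference 0.067), TNFAIP3, the NF-kB inhibitor A20 (0.097), ADTRP, a regulator of tissue factor pathway inhibitor (0.12), IFITM1, an antiviral membrane protein (0.13), and KRTAP2-3 (0.17), a keratin-associated gene with near-identical relatives. IL1B read 6.75, 6.81 and 6.90 with PBS and 9.28, 9.40 and 9.18 with EPC-Exos, and TNFAIP3 read 7.11, 7.14 and 7.26 against 9.82, 9.87 and 9.59.

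The cluster neighbours of the members were not called. For these and the further genes 1 probe set per gene was used, the brightest on average; over 18132 genes 13.8% were called higher and 17.4% lower, with a median log2 change of 0.015. PPBP, the precursor of the platelet ELR chemokine CXCL7, changed by 0.11 ± 0.10 and PF4, platelet factor 4, by 0.10 ± 0.12, both below the Tag level. PF4V1, its variant, changed by -0.08 ± 0.12, with mean log2 signals of 5.82 and 5.74 that lay above it. None of the 3 was called, with limma adjusted p of 0.513 to 0.673. Among 8 CXC chemokines without the ELR motif, CXCL12, the ligand of CXCR4, rose by 0.41 ± 0.10, and CXCL16, a membrane-bound scavenger and chemokine, fell by 0.78 on the log2 scale (SE 0.095). For CXCL12 that is 1 of 5 probe sets called. Of the other 6, 5 were below the Tag level in both groups.

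The receptors of the family were not called either. CXCR1 read 5.20, 4.97 and 5.00 with PBS and 4.90, 5.17 and 5.20 with EPC-Exos, and CXCR2 read 3.38, 3.52 and 3.50 against 3.48, 3.64 and 3.75. The CXCR2 values lay below the Tag level in both groups, so a change of it could not be judged, and those of CXCR1 straddled it. ACKR1, the Duffy receptor that carries chemokines across venular endothelium, read 6.65, 6.51 and 6.72 against 6.69, 6.71 and 6.53, above the Tag level on every array. The changes of CXCR1, CXCR2 and ACKR1 were 0.03 ± 0.12, 0.15 ± 0.11 and 0.02 ± 0.10. Of 5 further receptors of CXC ligands, ACKR3, a scavenger of CXCL12, fell by 0.71 on the log2 scale (SE 0.18), called on 3 of 4 probe sets. Its EPC-Exos mean, 4.77, lay below the Tag level, and its groups were only 0.05 apart. Over its probe sets the changes ran from -1.43 to -0.37, so the size of the fall is uncertain. The other 4 receptors were not called.

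Inflammatory mediators that are often induced with these chemokines rose in 8 of 15 measured genes, and 0 fell, with a median log2 change of 0.73. PTGS2, the inducible cyclooxygenase, changed most, from 3.76, 3.58 and 3.71 to 6.34, 6.66 and 6.29, a change of 2.75 ± 0.13 that was 0.92 on the lowest of its 3 probe sets. IL1B changed by 2.47 ± 0.080 and IL33, an alarmin of the interleukin 1 family, by 2.19 ± 0.14. The PBS means of PTGS2 and IL33 lay below the Tag level. The other 7 were not called. Of these, LIF, CSF1, CCL5 and CX3CL1 lay above that level, with changes of 0.21 ± 0.090, 0.09 ± 0.11, 0.06 ± 0.14 and -0.04 ± 0.10, while CCL2, CCL7 and TNF lay below it in both groups and could not be judged; all 7 were picked with their values in view.

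Of 16 genes of the NF-kB machinery, 9 rose, 1 fell and 6 were not called, with a median log2 change of 0.26. The members that changed most were TNFAIP3, by 2.59 ± 0.081, NFKBIZ, a nuclear co-activator of selected NF-kB targets, by 1.04 ± 0.068, and NFKBIA, the inhibitor IkB alpha, by 0.97 ± 0.060. These arrays measured RNA at 24 hours and not NF-kB activity. Among 15 genes of interleukin 1, tumour necrosis factor, interleukin 17 and Toll-like signalling, 4 rose and 2 fell, led by the interleukin 1 receptor IL1R1 (1.02 ± 0.076, and 0.35 on its other probe set), the kinase IRAK1 (0.78 ± 0.058) and the adaptor MYD88 (0.32 ± 0.065, called on 2 of 5 probe sets). Of 12 AP-1 and C/EBP factors, 3 rose and 2 fell; the AP-1 subunits FOSL1 (1.16 ± 0.065) and JUN (0.79 ± 0.054) rose, and ATF3 fell by 0.83 on the log2 scale (SE 0.10), called on 3 of 7 probe sets.

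Genes of AU-rich messenger RNA control, with others of RNA decay and its signalling, moved little. Of 14, 6 rose and 2 fell, all by less than 1.5-fold. The decay factor ZFP36L2 fell by 0.57 on the log2 scale (SE 0.059), the phosphatase DUSP1 rose by 0.51 ± 0.053, and the ribonuclease ZC3H12A rose by 0.40 ± 0.12. Tristetraprolin (ZFP36) was not called, with a change of -0.15 ± 0.062. Of 10 surface proteoglycans and heparan sulphate enzymes, 4 fell and 1 rose, with falls in GPC1, glypican 1 (-0.95 ± 0.071, and -0.34 on its other probe set), SDC2, syndecan 2 (-0.81 ± 0.081), and SDC3 (-0.49 ± 0.099, called on 1 of 2 probe sets). Of 11 molecules of neutrophil adhesion and passage, 3 rose and 1 fell. ICAM1, which binds neutrophil integrins, rose by 0.45 ± 0.15 with overlapping groups and was called on 2 of 3 probe sets. ESAM rose by 0.30 ± 0.10 on 1 of 2 probe sets, and CD99, a molecule of the crossing step, fell by 0.41 on the log2 scale (SE 0.039).

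**Figure D4:**
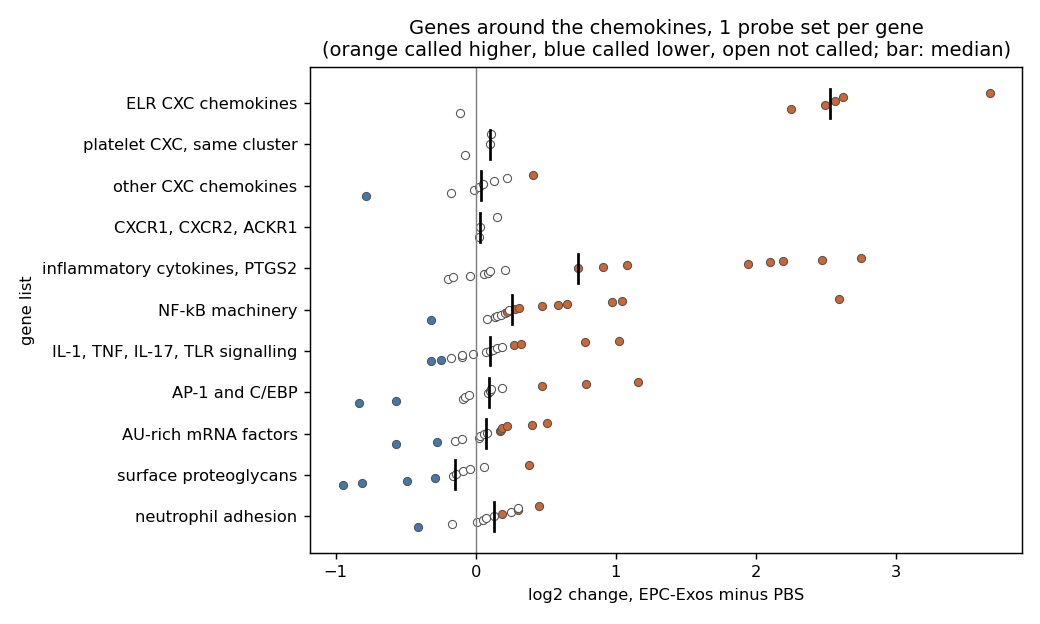
Log2 change (horizontal axis, EPC-Exos minus PBS) of each gene of the lists around the chemokines (vertical axis), each by its brightest probe set. Orange points were called higher, blue called lower and open ones not called, and bars are list medians, 2.52 for the 6 chemokines, 0.73 for the inflammatory mediators and within 0.26 of 0 for the other lists drawn.

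Cell type markers were read in the same arrays. Of 16 endothelial markers 9 lay above the Tag level in each group, PECAM1, VWF, TIE1, KDR, ERG, ESAM, EGFL7, ROBO4 and ENG. The others, CDH5, TEK, FLT1, EMCN, CLDN5, MMRN2 and SOX18, lay below it in both groups. The 3 that rose were ENG (0.81 ± 0.065), TIE1 (0.48 ± 0.11, called on 5 of 7 probe sets) and ESAM. Of 18132 genes, 12756 besides the members had a mean over all arrays above the Tag level. Such a signal alone is therefore not particular to endothelial markers. PECAM1 stood only 0.21 above the Tag level with PBS and 0.26 with EPC-Exos. Of 15 leukocyte markers 11 lay below it in both groups, including PTPRC, ITGAM, FCGR3B, S100A8, S100A9 and MPO. The 2 called were CD68 (0.74 ± 0.074) and LCP1 (0.25 ± 0.075). The summed linear signal of the list was 960 to 1038 with PBS and 1229 to 1291 with EPC-Exos. Most of that sum came from LCP1 and CD68, the brightest of the list, so it mainly follows these 2 genes. Of 7 platelet markers 4 lay above the Tag level in each group and 0 were called, with sums of 223 to 245 and 228 to 262. Of 8 fibroblast and mural markers 5 fell. LUM (-2.30 ± 0.11), DCN (-2.21 ± 0.10) and ACTA2 (-1.85 ± 0.14, called on 1 of 3 probe sets) changed most. DCN was called on 3 of 4 probe sets, and its highest change was 0.25. The sums were 2735 to 3098 against 1550 to 1736, most of it from COL1A1 (-0.67 ± 0.057). COL1A2 and PDGFRA in both groups, and LUM with EPC-Exos, lay below the Tag level. Of 7 epithelial markers 3 fell, KRT18 (-0.71 ± 0.041), CLDN4 (-0.30 ± 0.095) and KRT8 (-0.21 ± 0.060, called on 7 of 8 probe sets). The sums were 6906 to 7595 against 4716 to 4906, most of it from KRT18. CDH1, KRT19 and ESRP1 lay below the Tag level. The part of these shifts in the rise of the chemokines was not tested.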

How the data were processed

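RNA of 6 HMEC-1 samples, 3 per group by their titles, was hybridised to Affymetrix arrays after column purification, amplification and biotin labelling, per the labels' protocols. The deposited table holds log2 signals of 49395 probe sets, of which 102 are controls, on each array. The submitters' processing notes name MAS5 without a role; other steps are not given in the sources used here. The log2 scale was read from the range, 2.47 to 14.52. Array medians were 6.25 to 6.34, so no scaling was added; arrays correlated at 0.997 within groups and at 0.988 to 0.989 between them. The number of arrays limits precision.

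The platform annotation gave 1 symbol for 44988 probe sets, several for 1832 and none for 2473. All 49293 non-control probe sets entered limma 3.58.1 in R 4.3.3 (lmFit, eBayes with a variance trend, group as the only term, two-sided), without a filter on signal, and calls used a Benjamini-Hochberg adjusted p under 0.05. Errors of changes are moderated standard errors. On simulated data for this comparison over 49293 probe sets, 35.8% of 67 changed 1.2-fold were called, 94% of 67 changed 1.5-fold and 100% of 66 changed 2-fold, with 7 false calls. The simulated noise was independent and normal, its spread set by mean signal alone, and few probe sets were changed. The shares called and the false calls in the real data may therefore differ. Gene lists came from textbook knowledge; from each, up to 3 called genes by size of change are named, or the 2 with the smallest p, beside all members, receptors, cluster neighbours and the 5 genes of nearest profile, and further genes were picked with their values in view. The members and lists were chosen with earlier results of these data known. A few listed genes without a probe set of 1 symbol were not analysed here. Alternatives were filters, other scalings, offsets, other variance models, array weights, a replicate block, a test against a fold of 1.2, 1 probe set per gene, no _x_at or _s_at probe sets, and leaving out each array. Deviations of same-numbered arrays of the groups correlated at 0.11, 0.09 and 0.04. Differently numbered arrays were not compared in this way, so these values do not settle pairing.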

Additional observations from a re-analysis of the deposited data

How the results depend on the processing

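With every probe set kept, 12 of 14 members were called higher and 0 lower under each scaling, offset, variance model, array weighting, the replicate block, the test against a fold of 1.2 and without any single array. Filters kept 9 members (40th percentile, a log2 signal of 5.45) and 10 (above the highest Tag control), and each was called. Both filters used the mean over all 6 arrays. The CXCL3 probe sets, and at the Tag filter 11728716_x_at of CXCL5, passed only through their EPC-Exos signal. Their calls after filtering, also with 1 probe set per gene, therefore add no support. With 1 probe set per gene and that percentile filter, 4 members were called, all at least 1.5-fold higher, since CXCL5 and CXCL6 fell to the filter; 5748 genes were called in all, 461 of them at least 1.5-fold higher. Without _x_at and _s_at probe sets 7 members were called, all at least 1.5-fold higher. Over all probe sets 13986 were called, 4129 in the test against a fold of 1.2, and the 1359 at least 1.5-fold higher became 699 with an offset of 64, where the members at least 1.5-fold higher went from 12 to 10. CXCL6 on 11730801_at turned from 0.04 to -0.02 without EPC-Exos replicate 3, not called either way (adjusted p = 0.917 in limma), and ranged from -0.02 to 0.11 without a single array. The titles share replicate numbers, but whether the arrays were paired is not known, and the correlations taken cannot decide it. With the replicate block 12 members and 15234 probe sets were called. Without a single array the CXCL3 change on 11728477_at ranged from 3.61 to 3.72 and that of CXCL8 on 11718841_s_at from 2.51 to 2.61. Signal near background limits CXCL3, CXCL5 and CXCL6.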
